A study of Mus musculus with 4 samples.

Results

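The lysosomal V-ATPase and a set of lysosomal hydrolases, membrane proteins and regulators were examined in macrophages grown from mouse blood monocytes. Members were the genes on primary chromosomes whose symbol starts with Atp6v or Atp6ap, plus 27 lysosomal genes named by symbol. Cathepsins were left out. This gave 53 of the 32617 genes in the table, 26 of them with a V-ATPase symbol. Counts were present for 49 members, and 47 passed the filter on low counts and were tested.

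All cells came from C57BL/6J mice, 10 to 16 weeks old, whose blood was pooled (60 mice, 1 ml each, in the protocol). Monocytes selected for CD11b were kept for 6 or 7 days with M-CSF at 30 ng/ml, the growth factor that turns monocytes into macrophages. Peptide-treated classically activated macrophages (2 libraries) received LPS at 500 ng/ml, IFNγ at 20 ng/ml and mML56, a peptide that mimics the soluble form of the adhesion protein Ninj1. Classically activated macrophages (CAM, 1 library) received LPS and IFNγ alone, and M-CSF macrophages (1 library) received neither. For the peptide samples the strain is written C57BL/7J, here read as a slip for C57BL/6J, and no label gives the dose or time of the peptide. Nothing says that the libraries came from separate cultures, so p-values rest on how far the 2 peptide libraries lie apart, a spread that may be technical, and the lone CAM and M-CSF libraries were assumed to vary as much.

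Lysosomes are acidic compartments that break down material taken up by phagocytosis and endocytosis. The V-ATPase is a rotary proton pump that acidifies them: its cytosolic V1 sector burns ATP and its membrane V0 sector carries the protons. The hydrolases inside work at low pH. TFEB and TFE3 are transcription factors that, when they enter the nucleus, switch on many lysosomal genes through E-box motifs of the CLEAR type (core CACGTG) near gene starts. In macrophages this machinery serves the killing and digestion of microbes and dying cells.

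Total estimated counts were 12842680 and 12119427 in peptide libraries 1 and 2, 10333986 in CAM and 12414586 in M-CSF macrophages. Levels below are CPM after TMM scaling, which allow a gene to be compared between libraries but not with another gene, since they are not per length. All 12 macrophage markers had counts in every library. Their levels summed to 6510 and 5550 CPM in the peptide libraries, 8180 in CAM and 23600 in M-CSF. Lyz2 alone made up 2840 and 2370 CPM of these sums with the peptide, 4560 in CAM and 20900 in M-CSF. The other markers went both ways between CAM and M-CSF, with Csf1r at 65.4 and 399 CPM and Itgam at 991 and 261 CPM. Markers of dendritic cells, 7 in all, summed to 20.6 and 20.1 CPM in the peptide libraries, 51.5 in CAM, where 3 were at 0, and 29.3 in M-CSF. Most of the CAM sum was Xcr1 and Itgax. Xcr1 stood at 5.42 and 5.65 CPM in the peptide libraries and 23.8 in CAM (log2 fold change -2.10), and Itgax at 12 and 9.81 CPM and 24.8 in CAM. The rest of the list did not follow them. Zbtb46 stood at 1.98 and 1.91 CPM with the peptide and 1.95 in CAM, and Siglech had a log2 fold change of 0.17. Flt3, Clec9a and Dpp4, the 3 at 0 in CAM, were at most 0.713 CPM in any library. B cell markers summed to 2.75 and 2.91 CPM in the peptide libraries, 2.49 in CAM and 114 in M-CSF, of which Ighm made up 110 CPM, while Pax5 was at 0 in all 4. Platelet markers summed to 17.6 and 14.8 CPM in the peptide libraries, 10.9 in CAM and 125 in M-CSF. Nearly all of the M-CSF sum was Pf4 (74.3 CPM) and Itgb3 (47.8 CPM). Itga2b stood at 2.92 CPM in CAM and 2.66 CPM in M-CSF, Ppbp and Gp9 were at most 0.433 CPM in any library, and Gp1bb was at 0 in all 4. The part of these lists in the differences below was not tested. In such bulk samples, fewer cells of a type and less RNA per cell cannot be told apart.

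Promoters were searched because the members include the E-box-binding factors themselves and several members moved together. RefSeq promoter windows (GRCm38.p6, 250 bases before to 50 after each gene start) were matched by symbol for 43 of 53 members. The hexamer CACGTG, which reads the same on both strands, was in a window of 11 of these 43 members (25.6%), against 2187 of 27025 genes overall (8.09%). The longer TCACGTGA, which contains it, was in windows of 5 members (11.6%), against 1.12% of genes. Lamp1 had 4 copies of CACGTG, and Mcoln1, Gla, Nagpa and Atp6v0b had 2 each. The other 6 were Lgmn, Glb1, Gaa, Atp6v0d1, Atp6v0e and Atp6v1a, with 1 each. A match describes letters in a window and is not a binding site. No expression value enters these shares. The motif is known from lysosomal genes, so a higher share in a list of lysosomal genes says nothing about these libraries.

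The stretches below hold copies of the hexamer (capitals) in 6 members whose values follow; they are written 5′ to 3′ on the gene's strand. Those of Mcoln1 and Lgmn lie inside the gene's span as the deposited table gives it.
Lamp1 (chr8:13159081-13159160, plus strand): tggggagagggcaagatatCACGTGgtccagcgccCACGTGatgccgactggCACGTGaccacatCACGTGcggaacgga
Glb1 (chr9:114400996-114401075, plus strand): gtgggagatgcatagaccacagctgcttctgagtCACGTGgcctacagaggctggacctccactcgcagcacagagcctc
Gla (chrX:134601186-134601245, minus strand): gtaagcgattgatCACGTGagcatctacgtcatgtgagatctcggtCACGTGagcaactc
Atp6v0b (chr4:117887334-117887413, minus strand): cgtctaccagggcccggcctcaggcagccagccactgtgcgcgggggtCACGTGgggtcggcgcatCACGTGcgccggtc
Mcoln1 (chr8:3500461-3500490, plus strand): caggcgccccgctCACGTGaccgcggcgca
Lgmn (chr12:102439124-102439153, minus strand): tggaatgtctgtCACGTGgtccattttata

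The series asks what mML56 does to activated macrophages. With the peptide, Tfeb and genes for a sialidase, a sphingomyelinase, a cysteine protease, a cholesterol carrier and a calcium channel of the lysosome were higher, by 2.28 to 3.92-fold. A V0 proteolipid gene, Atp6v0c, and Lamp2 were lower, by 3.26-fold and 1.83-fold. Of the 47 tested members 15 rose (31.9%) and 6 fell (12.8%), where 20.6% and 17.1% of all 14104 tested genes rose and fell. At least 2-fold, 10 were higher (21.3%) and 3 lower (6.38%), where 20.2% and 16.7% of all tested genes were, so the share that was 2-fold higher was near that of all genes. Among the 15 and the 10 are 3 members listed at 0 in CAM, Tmem192, Atp6v1f and Atp6v0e2; without them 12 of 44 rose (27.3%) and 7 were at least 2-fold higher (15.9%). The median log2 fold change of the members was 0.34, against 0.05 over all tested genes. Scaling by library size alone gave 20 and 5 (median 0.42, all genes 0.13). The counts were 10 and 7 with an offset for GC content and transcript length (median 0.07, all genes -0.08), an alternative chosen after seeing the data. That offset also called fewer of all tested genes, 3675 with 45.3% of them higher, against 5320 with 54.6% higher without it. Its counts are therefore not to be set against 20.6% and 17.1%.

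**Figure D1:**
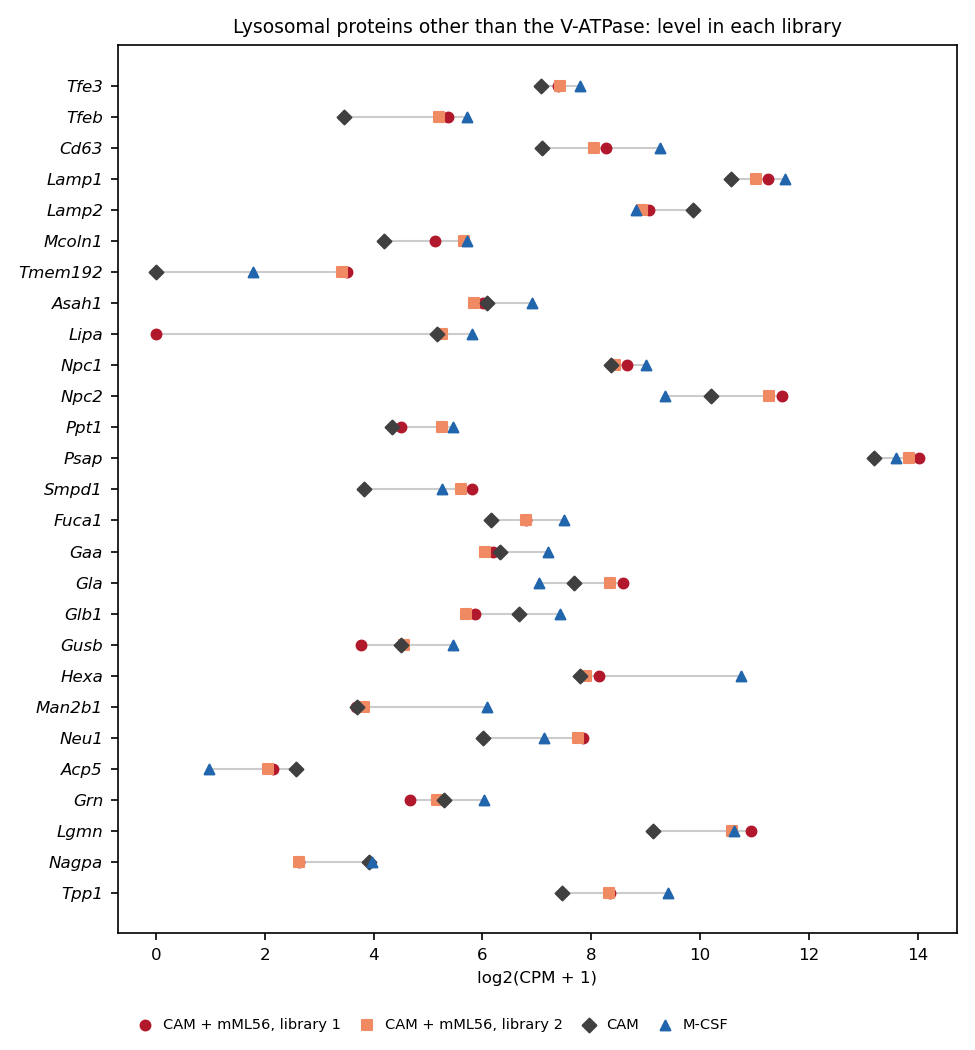
Level of the 27 lysosomal genes named by symbol, as log2(CPM + 1), in each library: red circles and orange squares are peptide-treated CAM, libraries 1 and 2, black diamonds CAM and blue triangles M-CSF macrophages. For Tfeb, Smpd1, Neu1 and Lgmn the CAM library lies left of the other 3, and Lipa has 1 peptide library at 0.

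Tfeb, the master regulator of lysosomal genes (ENSMUSG00000023990, mm10 chromosome 17, 47737030 to 47792419), stood at 40.3 and 35.8 CPM in the peptide libraries, 9.96 CPM in CAM and 51.7 CPM in M-CSF macrophages. Both peptide libraries lay above CAM and below M-CSF. The log2 fold change against CAM was 1.93 (SE 0.238, adjusted p = 6.55e-05 in edgeR's quasi-likelihood test, Benjamini-Hochberg over all tested genes), a 3.82-fold difference, and 1.14 (adjusted p = 0.0112) with the GC and length offset. Tfe3, its paralog (ENSMUSG00000000134), stood at 167 and 171 CPM with the peptide, 134 CPM in CAM and 221 CPM in M-CSF. Its log2 fold change against CAM was 0.34 (SE 0.164, adjusted p = 0.124), not past the threshold of 0.05; scaled by library size alone it was 0.42 (adjusted p = 0.0317).

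Among membrane proteins 3 of 5 rose with the peptide and 1 fell, where 20.6% and 17.1% of all tested genes did. Tmem192, listed at 0 in CAM, is among the 3. Mcoln1 encodes TRPML1, the calcium channel whose release of calcium activates TFEB. It stood at 34.2 and 49.5 CPM with the peptide and 17.3 CPM in CAM (log2 fold change 1.27, SE 0.255, adjusted p = 0.00199). Cd63, a tetraspanin of late endosomes and exosomes, averaged 285 ± 29.9 CPM with the peptide (SD, n = 2), against 135 CPM in CAM (1.07, SE 0.183, adjusted p = 0.000668). With the GC and length offset neither passed, Mcoln1 at 0.94 (adjusted p = 0.0546) and Cd63 at 0.34 (adjusted p = 0.152). Tmem192, a lysosomal membrane protein used as a tag for isolating lysosomes, stood at 10.4 and 9.64 CPM with the peptide, was listed at 0 in CAM and stood at 2.46 CPM in M-CSF. Such a listed 0 can be a failed estimate of kallisto, so no fold is given.

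Lamp1 and Lamp2, the abundant glycoproteins that line the lysosomal membrane, are given side by side. Lamp2 (ENSMUSG00000016534, chromosome X, 38401357 to 38456454) stood at 533 and 489 CPM with the peptide, 936 CPM in CAM and 451 CPM in M-CSF, so that CAM was the highest library. Its log2 fold change was -0.87 (SE 0.17, adjusted p = 0.00165). Lamp1 (ENSMUSG00000031447) stood at 2420 and 2080 CPM with the peptide, 1520 CPM in CAM, the lowest library, and 3020 CPM in M-CSF. Its log2 fold change against CAM was 0.56 (SE 0.214, adjusted p = 0.0542); DESeq2 (adjusted p = 0.0214) and library size only (adjusted p = 0.00456) called it, while the GC and length offset put it at 0.08 (adjusted p = 0.75).

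Of the lipid-handling members 2 of 7 rose with the peptide and none fell in the edgeR test. Over all tested genes 20.6% rose and 17.1% fell. Smpd1, the acid sphingomyelinase (ENSMUSG00000037049, chromosome 7, 105554360 to 105558389), stood at 54.7 and 48 CPM with the peptide against 13.1 CPM in the CAM library. The log2 fold change was 1.97 (SE 0.227, adjusted p = 4.28e-05), and 1.26 (adjusted p = 0.00926) with the offset. It is the enzyme that turns sphingomyelin into ceramide. Npc2, the lumenal protein that hands cholesterol to Npc1 for export (ENSMUSG00000021242, chromosome 12, 84754560 to 84773112), stood at 2890 and 2450 CPM with the peptide, 1170 CPM in CAM and 653 CPM in M-CSF. Its log2 fold change against CAM was 1.19 (SE 0.216, adjusted p = 0.00102). Npc1 itself averaged 374 ± 39.7 CPM with the peptide, against 329 CPM in CAM (0.19, SE 0.176, adjusted p = 0.43). Asah1, the acid ceramidase, and Ppt1, a thioesterase that removes palmitate from proteins, had log2 fold changes of -0.15 and 0.61 and did not pass.

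Psap, whose product is cut into the saposins that help sphingolipid hydrolases, took more counts than any other member. It accounted for 1.51% and 1.46% of counts in the peptide libraries, 0.839% in CAM and 1.54% in M-CSF. On the CPM scale it stood at 16600 and 14700 with the peptide, 9390 in CAM and 12400 in M-CSF. Its log2 fold change for peptide against CAM was 0.74 (SE 0.281, adjusted p = 0.0542), just short of the threshold. Shares of counts here, for Psap and for all members, were taken before TMM scaling. The order of M-CSF and the peptide libraries in them need not hold on the CPM scale. All members together took 2.64% and 2.55% of counts in the peptide libraries, 1.54% in CAM and 3.2% in M-CSF. Without Psap the shares were 1.14%, 1.08%, 0.697% and 1.66%, so CAM remained the lowest library. Wilson 95% intervals were no wider than 0.010 percentage points on each side, for counting error alone.

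Sugar-cleaving hydrolases rose in 3 of 8 cases with the peptide and fell in 1, where 20.6% and 17.1% of all tested genes rose and fell. Neu1, the lysosomal sialidase (ENSMUSG00000007038, chromosome 17, 34931253 to 34935953), stood at 230 and 215 CPM with the peptide, 63.1 CPM in CAM and 139 CPM in M-CSF. Both peptide libraries were above both other libraries, and the log2 fold change against CAM was 1.82 (SE 0.18, adjusted p = 1.38e-05). Gla, the alpha-galactosidase that is deficient in Fabry disease in humans, averaged 353 ± 38.8 CPM with the peptide and stood at 205 CPM in CAM (0.79, SE 0.178, adjusted p = 0.00409). Fuca1, a fucosidase, had a log2 fold change of 0.65. Glb1, the beta-galactosidase used as a senescence stain, went the other way, at 57.6 and 50.9 CPM with the peptide and 101 CPM in CAM (-0.90, SE 0.166, adjusted p = 0.00117). Tmppe shares 165 identical bases with Glb1 on the same strand. It had 587.8 and 635.9 counts with the peptide and 467.7 in CAM, and its part in the Glb1 estimate was not tested. The other 4, Gaa, Gusb, Hexa and Man2b1, had log2 fold changes from -0.29 to 0.24 and did not pass.

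Among the proteases and other lumenal or sorting proteins, Lgmn and Tpp1 rose and Nagpa fell. Lgmn, or legumain, an asparagine-cutting protease that matures cathepsins (ENSMUSG00000021190, chromosome 12, 102394084 to 102439813), stood at 1960 and 1540 CPM with the peptide, 564 CPM in CAM and 1570 CPM in M-CSF. The log2 fold change against CAM was 1.63 (SE 0.225, adjusted p = 0.000149), and the peptide libraries lay on either side of M-CSF. Tpp1, a tripeptidyl peptidase, stood at 322 and 321 CPM with the peptide and 175 CPM in CAM (0.88, SE 0.174, adjusted p = 0.0018). Nagpa, which uncovers the mannose 6-phosphate tag of lysosomal enzymes, stood at 5.16 CPM in both peptide libraries, against 14.1 CPM in CAM (-1.45, SE 0.297, adjusted p = 0.00232). DESeq2 did not call Nagpa (adjusted p = 0.119), and the offset gave -2.27. Grn, the progranulin gene, and Acp5, an acid phosphatase, had log2 fold changes of -0.36 (adjusted p = 0.229) and -0.59 (adjusted p = 0.349).

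Of the 20 tested V-ATPase genes 4 rose with the peptide (20%) and 3 fell (15%), shares near those of all tested genes. Without Atp6v1f and Atp6v0e2, listed at 0 in CAM, 2 of 18 rose (11.1%) and 3 fell. The median log2 fold change of the 20 was 0.18, and -0.23 with the GC and length offset, so no direction holds for the pump as a whole. In the V1 sector, the catalytic A subunit gene Atp6v1a averaged 399 ± 20.6 CPM with the peptide and stood at 395 CPM in CAM (log2 fold change 0.01, SE 0.17, adjusted p = 0.967). Atp6v1b2, the B subunit of macrophages, and Atp6v1d, the central stalk, rose (0.69 and 0.78, adjusted p = 0.0105 and 0.00426). Atp6v1h, a regulatory subunit, fell, with 15.6 and 16.5 CPM with the peptide and 27 CPM in CAM (-0.75, SE 0.238, adjusted p = 0.0261). Atp6v1c1, Atp6v1e1, Atp6v1g1, Atp6v1g2 and Atp6v1g3 lay between -1.74 and 0.83 and did not pass, the lowest being Atp6v1g3, a kidney form with at most 12 counts per library.

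In the V0 sector, Atp6v0c, the proteolipid of the rotating ring (ENSMUSG00000024121, chromosome 17, 24163866 to 24169702), stood at 25.2 and 36.1 CPM with the peptide, 100 CPM in CAM and 60.9 CPM in M-CSF. Its log2 fold change against CAM was -1.71 (SE 0.205, adjusted p = 5.63e-05). Processed pseudogenes carry near-identical copies of its sequence, but held at most 5.1 counts in any library. Atp6v0a1, an a subunit that anchors the pump in the membrane, fell as well, with 138 and 122 CPM with the peptide and 210 CPM in CAM (-0.69, SE 0.167, adjusted p = 0.00637). Tcirg1, the a3 subunit of lysosomes and osteoclasts, which carries another symbol and is no member, stood at 370 and 517 CPM with the peptide, 193 CPM in CAM and 180 CPM in M-CSF (1.20, SE 0.214, adjusted p = 0.000892). Atp6v0a2, Atp6v0b, Atp6v0d1, Atp6v0d2 and Atp6v0e lay between -0.52 and 0.51 and did not pass. Atp6v1f and Atp6v0e2 did, but both were listed at 0 in CAM and were at most 1.83 CPM with the peptide.

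**Figure D2:**
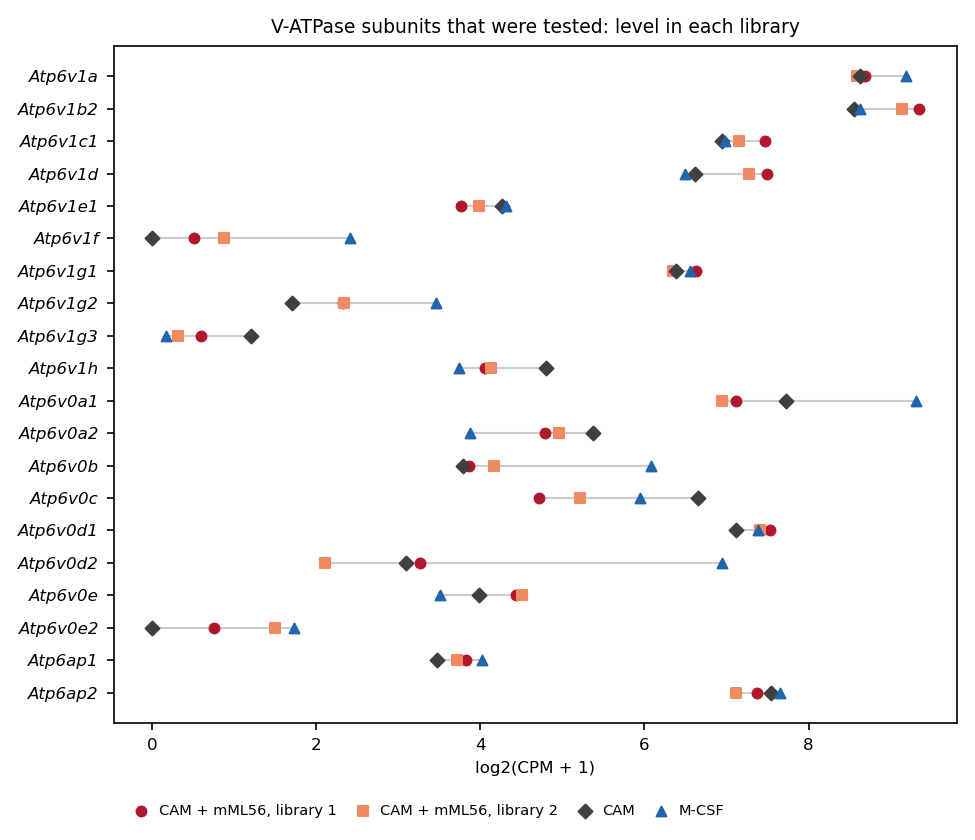
Level of the 20 tested V-ATPase genes as log2(CPM + 1) in each library (red circles and orange squares, peptide-treated CAM libraries 1 and 2; black diamonds, CAM; blue triangles, M-CSF macrophages). Atp6v0d2 and Atp6v0a1 are farthest right in M-CSF, and Atp6v0c is farthest right in CAM.

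The peptide libraries resembled each other in nearly all members. Leaving out Lipa, they lay 1 to 2.66-fold apart over 46 tested members, with a median of 1.15-fold. Lipa, the acid lipase that frees cholesterol from lipoproteins, was listed at 0 CPM in library 1 and at 37.3 CPM in library 2, against 35 CPM in CAM and 54.7 CPM in M-CSF. It was not called in any comparison of the edgeR test, and no other gene model shared a stretch of at least 100 bases with it. Atp6v0d2 differed 2.59-fold between the pair (8.6 and 3.33 CPM).

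CAM against M-CSF macrophages asks what activation did. The V0 gene Atp6v0d2 was 16-fold lower in CAM, and most hydrolase and membrane protein genes were lower too, Hexa 7.87-fold and Man2b1 5.53-fold, while Lamp2, Npc2, Gla and the a2 subunit gene were higher. Of the 47 tested members 7 rose (14.9%) and 27 fell (57.4%), where 21.4% and 23.0% of all tested genes did. At least 2-fold, 5 were higher (10.6%) and 18 lower (38.3%), where 21.4% and 26.3% of all tested genes were. Without the 3 members listed at 0 in CAM, 24 of 44 fell (54.5%) and 15 were at least 2-fold lower (34.1%). The median of the 47 was -0.75, against -0.07 over all tested genes. With library size only, 3 rose and 34 fell (median -1.22), but there the median of all tested genes was itself -0.55. With the GC and length offset 4 rose and 25 fell (median -0.99, all genes -0.25). Of the calls over all tested genes 41.1% were then higher, against 48.2% without the offset.

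**Figure D3:**
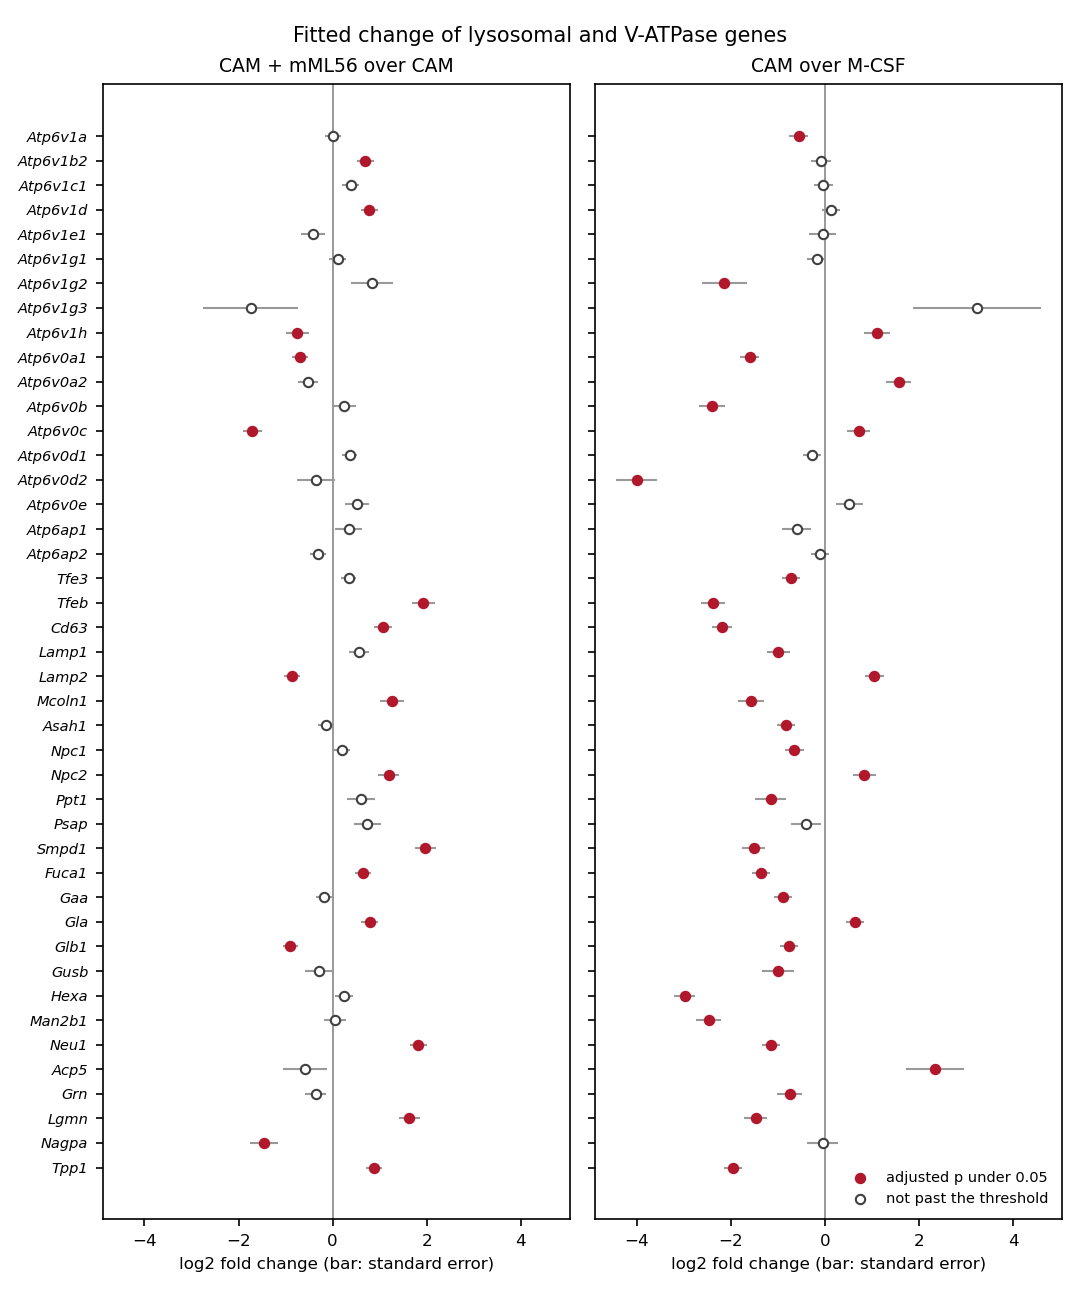
Fitted log2 fold changes with their standard errors for the 43 tested genes that were above 0 in every library, for peptide-treated CAM over CAM (left) and CAM over M-CSF macrophages (right); red points passed an adjusted p of 0.05 and open points did not. Both panels use the same CAM library, which is subtracted on the left and added on the right, so opposite signs in a row are partly built in. Tfeb stands at 1.93 on the left and -2.38 on the right.

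Among members other than the V-ATPase 20 of 27 fell on activation and 4 rose, where 23.0% and 21.4% of all tested genes fell and rose. Tmem192, listed at 0 in CAM, is among the 20. The fall took in 7 of 8 sugar-cleaving hydrolases, 4 of 7 lipid-handling genes, 3 of 5 proteases and other lumenal proteins, 4 of 5 membrane proteins and both transcription factors. Hexa, the alpha chain of beta-hexosaminidase (ENSMUSG00000025232, chromosome 9, 59539540 to 59565109), stood at 220 CPM in CAM and 1730 CPM in M-CSF, giving a log2 fold change of -2.98 (SE 0.227, adjusted p = 2.8e-07). An antisense gene, Tmem202, shares 255 bases with it but held at most 24 counts in a library. With the peptide Hexa stood at 282 and 238 CPM. Man2b1, the lysosomal alpha-mannosidase, stood at 12 CPM in CAM and 66.5 CPM in M-CSF (-2.47, SE 0.271, adjusted p = 8.49e-06). With the peptide Man2b1 stood at 11.8 and 13.1 CPM. These 2 genes stood far below M-CSF in all 3 activated libraries.

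Tfeb was at 9.96 CPM in CAM and 51.7 CPM in M-CSF (log2 fold change -2.38, SE 0.258, adjusted p = 7.82e-06), and Tfe3 at 134 CPM in CAM and 221 CPM in M-CSF (-0.72, SE 0.187, adjusted p = 0.00702). Cd63 fell to 135 CPM in CAM, against 613 CPM in M-CSF (-2.18), and Tpp1 to 175 CPM in CAM, against 675 CPM in M-CSF (-1.95). Mcoln1, Smpd1, Lgmn, Neu1 and Lamp1 fell too, with log2 fold changes from -1.57 to -0.99. The 4 that rose were Lamp2 (1.05, SE 0.204, adjusted p = 0.00097), Npc2 (0.84, adjusted p = 0.0115), Gla (0.64, adjusted p = 0.0197) and Acp5, which was at 4.98 CPM in CAM and 0.972 CPM in M-CSF. With library size only, Npc2 was at 0.37 and did not pass (adjusted p = 0.0877).

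Of 20 tested V-ATPase genes 3 rose on activation (15%) and 7 fell (35%), with a median of -0.14, where 21.4% and 23.0% of all tested genes rose and fell. Without Atp6v1f and Atp6v0e2, which are listed at 0 in CAM, 5 of 18 fell (27.8%). Atp6v0d2, the d subunit of osteoclasts and macrophages (ENSMUSG00000028238, chromosome 4, 19876841 to 19922605), stood at 7.58 CPM in CAM and 122 CPM in M-CSF (log2 fold change -4.00, SE 0.433, adjusted p = 7.48e-06). Its widely expressed counterpart Atp6v0d1 stood at 138 CPM in CAM and 166 CPM in M-CSF (-0.27, SE 0.189, adjusted p = 0.272). Atp6v0a1 was at 210 CPM in CAM and 635 CPM in M-CSF (-1.60, SE 0.199), and Atp6v0b, the c″ proteolipid, at 12.8 CPM in CAM and 66.9 CPM in M-CSF (-2.39, SE 0.277).

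Atp6v0a2, the a subunit of the Golgi and endosomes, was higher in CAM, at 40.6 CPM against 13.7 CPM in M-CSF (1.57, SE 0.26, adjusted p = 0.000285). Atp6v1h rose as well (1.11, adjusted p = 0.00618), as did Atp6v0c (0.72, adjusted p = 0.0289), though Atp6v0c was no longer called without a filter on low counts (adjusted p = 0.0661), by DESeq2 (adjusted p = 0.156), with library size only (adjusted p = 0.458) or with the offset (adjusted p = 0.0836). Atp6v1g2, a G subunit of neurons, was at 2.27 CPM in CAM and 10 CPM in M-CSF, and DESeq2 did not call it (adjusted p = 0.133). In the V1 sector Atp6v1a fell, at 395 CPM in CAM and 583 CPM in M-CSF (-0.56, SE 0.197, adjusted p = 0.0345), and Atp6v1f was listed at 0 in CAM and stood at 4.34 CPM in M-CSF. The V1 genes Atp6v1b2, Atp6v1c1, Atp6v1d, Atp6v1e1 and Atp6v1g1 had log2 fold changes from -0.17 to 0.13 and did not pass. Among the accessory proteins, Atp6ap1 was at 10.1 CPM in CAM and 15.2 CPM in M-CSF, and Atp6ap2, the prorenin receptor, at 186 CPM in CAM and 200 CPM in M-CSF, with neither past the threshold.

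Subunit genes known mainly from other tissues had few or no counts. Atp6v0a4 and Atp6v1b1, of kidney and other acid-secreting cells, had 0 and at most 8 counts per library. Atp6v1e2, a testis form, Atp6ap1l and the pseudogene Atp6v0c-ps1 had 0, and Atp6v1c2 at most 1. By counting error alone a count of 0 would allow up to 0.325 CPM (3 counts) in the shallowest library, but a listed 0 can be a failed estimate and then sets no limit. Atp6v0a4 shares 259 bases with D630045J12Rik, which had 35.3 to 80.8 counts per library.

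Against M-CSF macrophages, peptide-treated CAM had 9 of 47 members higher (19.1%) and 19 lower (40.4%), where 22.1% and 19.0% of all tested genes were. At least 2-fold, 7 were higher (14.9%) and 15 lower (31.9%), where 18.3% and 20.2% of all tested genes were. With library size only the counts were 5 and 27, and with the offset 4 and 28. Of the calls over all tested genes 33.2% and 37.8% were higher there, against 53.8% with TMM and no offset. Tfeb averaged 38.1 ± 3.25 CPM with the peptide and stood at 51.7 CPM in M-CSF (log2 fold change -0.44, SE 0.197, adjusted p = 0.0904). Library size only (-0.84, adjusted p = 0.00251) and the offset (-0.79, adjusted p = 0.0105) called this difference. Lgmn was at 0.16 (SE 0.208, adjusted p = 0.582), Mcoln1 at -0.30 (SE 0.226, adjusted p = 0.315) and Lamp2 at 0.18 (SE 0.176, adjusted p = 0.446), which does not show that they were equal. Library size only called Mcoln1 lower (-0.68, adjusted p = 0.0306), the offset put it at -0.73 (adjusted p = 0.0583), and both turned the sign of Lgmn and Lamp2, with neither called. Neu1 was higher with the peptide than in M-CSF (0.68, SE 0.166, adjusted p = 0.00528), but did not pass with library size only (0.28, adjusted p = 0.107) or with the offset (0.36, adjusted p = 0.0774). Npc2 (2.03, SE 0.226, adjusted p = 8.8e-06) and Gla (1.43, SE 0.184, adjusted p = 3.24e-05) were higher with the peptide than in M-CSF, and Hexa (-2.74, SE 0.176), Man2b1 (-2.41, SE 0.211), Atp6v0d2 (-4.35, SE 0.333) and Atp6v0a1 (-2.29, SE 0.162) were lower. This comparison shares its libraries with the other 2 and is not independent of them.

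The calls were also counted by the hexamer CACGTG, as a description. Of the 11 members with it in a promoter window, 3 rose and 2 fell with the peptide (median log2 fold change 0.36), against 11 and 3 of 28 tested members whose windows lacked it (median 0.47). Over all tested genes 20.6% rose and 17.1% fell (median 0.05). On activation 1 rose and 7 fell (median -0.77), against 4 and 17 (median -1.07), where 21.4% and 23.0% of all tested genes rose and fell (median -0.07). Glb1 and Gla, whose stretches are printed above, fell and rose with the peptide. Smpd1, Neu1 and Tfeb had no copy in their windows, which says only that these letters are absent there.

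Other genes of the pathway were counted from 6 lists of 172 genes, 168 of them tested. With the peptide 61 rose (36.3%) and 25 fell (14.9%), with a median log2 fold change of 0.26, where 20.6% and 17.1% of all tested genes did. On activation 35 rose (20.8%) and 62 fell (36.9%), with a median of -0.32, where 21.4% and 23.0% of all tested genes did, so the share that rose was near that of all genes. Rogdi and Cln6, listed at 0 in CAM, are among the 61 and the 62. The peptide counts were 35 and 15 with the GC and length offset, which also called fewer of all tested genes (3675, against 5320 without it). Among 37 other hydrolases and activators 23 rose with the peptide (62.2%) and 4 fell, or 13 and 4 with the offset. Hyal1, a hyaluronidase, stood at 102 and 77.6 CPM with the peptide and 20.5 CPM in CAM (2.14, SE 0.229). Ifi30, the thiol reductase GILT that opens disulfides for antigen presentation, stood at 242 and 231 CPM, against 55.7 CPM in CAM (2.09, SE 0.182). Pla2g15, a lysosomal phospholipase, was at 32.8 CPM in CAM and 309 CPM in M-CSF (-3.24, SE 0.236), while Plbd1 was at 77.1 CPM in CAM and 0.519 CPM in M-CSF (7.19, SE 0.317).

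Among 40 other membrane proteins 19 rose with the peptide (47.5%) and 2 fell, where 20.6% and 17.1% of all tested genes did. The counts were 13 and 2 with the offset, which called fewer of all tested genes (3675, against 5320 without it). Cd68, a macrophage LAMP relative, stood at 39 and 32.8 CPM with the peptide, 1.19 CPM in CAM and 13.4 CPM in M-CSF. Tmem175, a lysosomal potassium and proton channel, stood at 21.7 and 17.7 CPM with the peptide, 2.6 CPM in CAM and 19 CPM in M-CSF (2.92 for peptide against CAM, SE 0.34). In both genes the CAM library was the lowest. Slc15a3, a histidine and peptide transporter, stood at 1560 and 1620 CPM with the peptide, 1390 CPM in CAM and 235 CPM in M-CSF (2.57 for CAM against M-CSF, SE 0.229).

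The remaining lists had calls both ways with the peptide, to be read against the 20.6% higher and 17.1% lower of all tested genes. Enzyme sorting rose in 3 of 26 cases (11.5%) and fell in 7 (26.9%), led by the sorting receptors Sorl1 (-2.89, SE 0.189) and Sort1 (-1.89, SE 0.242). Cln6, listed at 0 in CAM, is among the 3 that rose. On activation 11 sorting genes rose (42.3%) and 6 fell (23.1%, median 0.26), but 5 and 11 with library size only (median -0.22). Cln6 is also among the 6 that fell. M6pr, the small mannose 6-phosphate receptor, was at 80.1 CPM in CAM and 16.6 CPM in M-CSF. Assembly factors and partners of the V-ATPase, with Tcirg1, rose in 5 of 15 cases (33.3%) and fell in 5 (33.3%). Rogdi, listed at 0 in CAM, is among those that rose. Nutrient signalling and TFEB control rose in 5 of 32 (15.6%) and fell in 5 (15.6%), shares below those of all genes, with Flcn, the folliculin GTPase activator that keeps TFEB out of the nucleus, at 61.2 and 64.3 CPM with the peptide, 26.6 CPM in CAM and 134 CPM in M-CSF. Tethering complexes rose in 6 of 18 (33.3%) and fell in 2 (11.1%, median 0.30, or -0.09 with the offset).

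**Figure D4:**
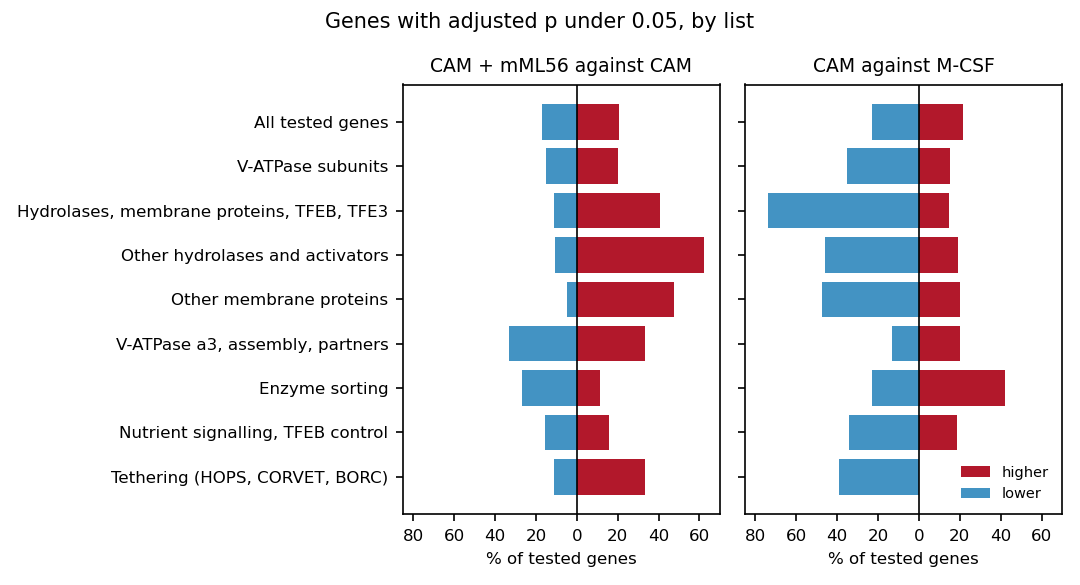
Share of tested genes past an adjusted p of 0.05 in each list, for peptide-treated CAM against CAM (left) and CAM against M-CSF macrophages (right); red bars to the right are higher and blue bars to the left lower. Over all tested genes the peptide bars reach 20.6% and 17.1%, and the bar of other hydrolases reaches 62.2% on the higher side.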

How the data were processed

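Messenger RNA was sequenced in 4 libraries. Per the labels' protocols the kit was NEXTflex Rapid Directional mRNA-Seq. The deposited values are estimated counts for each gene with no scaling, of which 61.5% to 69.5% per library are whole numbers. The tools kallisto and StringTie and the build mm10 are named in the submitters' processing notes; how transcripts were summed, with which annotation and strand, is not given in the sources used. Symbols, coordinates and identifiers come from the deposited table, which also lists a transcript length that was not used.

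Columns were matched to samples by name: M-CSF, CAM, and peptide libraries 1 and 2, named by their column numbers. The column of peptide library 2 was matched by its treatment only, since the remaining title of that group carries no number. The CAM column carries the number 1 and the M-CSF column the number 2. Any difference that goes with these numbers cannot be told apart from that of activation. Counts were rounded, filtered with filterByExpr (14104 genes kept) and scaled by TMM (factors 0.906, 0.993, 0.894 and 1.24 for peptide libraries 1 and 2, CAM and M-CSF). Groups were compared with the quasi-likelihood F test of edgeR (4.0.16, R 4.3.3) on 4 libraries in 3 groups, with Benjamini-Hochberg adjustment over all tested genes and a threshold of 0.05. The residual spread came from the peptide pair alone (1 residual degree of freedom, prior degrees of freedom 11.8, biological coefficient of variation 0.161). SE was taken as log2 fold change over the root of F. The fit was tested on simulated data for peptide against CAM, with 13406 genes and 100 of them changed at each log2 size. It recovered 33% of changes of log2 size 1 and 100% of those of size 2, and called 0.0379% of unchanged genes. A change of 2-fold or less that did not pass is therefore not shown to be absent. In the real comparison 5320 of 14104 genes were called. The adjusted p depends on that share, so the recovered shares need not hold there.

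Members and lists were chosen with earlier results of these data known. Values per library are given for members called in the peptide or activation comparison at 10 CPM or more in a group, at most the 12 largest in each, and for Lamp1, Lamp2, Tfeb and Tfe3; further members illustrate their roles and were chosen with their values seen. Alternatives were other scalings, no filter on low counts, DESeq2 1.42.0, either peptide library left out, and, added after seeing the data, an offset for GC content and length (GENCODE M21), and members in doubt or listed at 0 in CAM left out. Members were compared with all GENCODE M21 transcripts for shared stretches of at least 100 bases at 95% identity.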

Additional observations from a re-analysis of the deposited data

How the results depend on the processing

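The residual spread of every p-value rests on 1 pair of peptide libraries, and with either left out no residual degree of freedom remained, so those settings gave values without a test. No paired analysis was possible because CAM and M-CSF have 1 library each and share fewer than 2 replicate numbers with the peptide group. The CAM library has the fewest counts, which limits genes near 0 there. No fold change called by edgeR for a member followed under the alternatives changed its sign. Uncalled ones did: with the offset, Hexa (-0.48), Man2b1 (-0.40) and Atp6v0b (-0.55) for peptide against CAM, Nagpa (0.35) for CAM against M-CSF, and Smpd1 (-0.02), Lamp2 (-0.08) and Lgmn (-0.41) for peptide against M-CSF, and with library size only Lamp2 (-0.21) and Lgmn (-0.24) for the last. Atp6v0d2 for peptide against CAM was 0.22 without peptide library 2. Of the medians given above, those of all tested genes, the V-ATPase and the tethering list changed sign with the offset for peptide against CAM, and that of the sorting list on activation did with library size only.

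Without 1 peptide library, the median of the members against M-CSF was -0.37 to -0.33, against -0.44 with both. Scaling by library size only gave, for peptide against CAM, a member median of 0.42. For CAM against M-CSF it gave 3 members called higher, 3 at least 2-fold higher, 29 at least 2-fold lower, a median of -1.22, and 21 other lysosome genes called higher. For peptide against M-CSF it gave 5 members called higher, a median of -0.84, and 27 other lysosome genes called higher and 78 lower. This scaling moved the median of all tested genes against M-CSF to -0.55 for CAM and -0.46 for the peptide, and left 28.5% of activation calls on the higher side, against 48.2% with TMM.

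DESeq2 called 15 other lysosome genes lower for peptide against CAM. It called 4 members higher, and 23 other lysosome genes higher and 41 lower, for CAM against M-CSF, and 25 other lysosome genes lower for peptide against M-CSF. The GC and length offset gave, for peptide against CAM, 6 members at least 2-fold lower, a median of 0.07, and 35 other lysosome genes called higher and 15 lower. For CAM against M-CSF it gave 4 members called higher, 3 at least 2-fold higher and a median of -0.99. For peptide against M-CSF it gave 4 members called higher, 4 at least 2-fold higher, a median of -0.86 and 27 other lysosome genes called higher. Apart from the construction of each setting, the cause was not tested. A further setting left out 7 members that share at least 200 bases with another gene with counts, or whose peptide libraries differed over 4-fold. It gave 14 higher and 5 lower for peptide against CAM. Atp6v0a4 and Atp6v0c-ps1, among the 7, were not tested in the first place. Members that share shorter stretches with genes that have counts, such as Glb1, Lamp1, Lamp2 and Ppt1, stayed in. Leaving out the 3 members listed at 0 in CAM, also chosen after seeing the data, gave 12 higher and 6 lower.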
